A study of Mus musculus with 6 samples.

Results

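The genes described here encode the proteins of the mitochondrial ribosome. They are the 38 protein-coding genes, of 1375 in the deposited table, whose symbol starts with Mrpl or Mrps and a digit, pseudogenes left out. Of these, 13 are named for the small subunit (Mrps) and 25 for the large subunit (Mrpl). RefSeq names 78 protein-coding mouse genes this way, 29 of the small and 49 of the large subunit, so the table holds 48.7% of the family, 44.8% of its small and 51.0% of its large subunit. The ranks of the deposited adjusted p-values point to about 14156 genes adjusted, a number that gave whole ranks in 55 of the 126 genes used. The listed 1375 equal 9.71% of that number. Some listed genes, such as Lum and Slirp, had a higher adjusted p than listed genes with a higher unadjusted p. They appear to lie outside the genes adjusted, so 9.71% is only a rough share. The denominators of the family and table shares differ, since it is not known which family members were among the genes tested. The difference was not tested. The other family members were not analysed here. RNA of the prefrontal cortex was sequenced in bulk from 6 C57BL/6J males, all of which had received 10 mg/kg ketamine intraperitoneally 24 hours before collection. The 3 responders (Res1, Res2 and Res3) were mice labelled as responding to ketamine, and the 3 nonresponders (NR1, NR2 and NR3) were mice labelled as not responding. Both groups were treated alike, were siblings housed 3 per cage and carry batch number 1. No untreated mouse belongs to the comparison, so it shows how responders differed from nonresponders after the drug, and not what the drug did.

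The mitochondrial ribosome sits in the mitochondrial matrix and translates the proteins encoded by the mitochondrial genome, all of them parts of the respiratory chain and ATP synthase. Its RNAs come from the mitochondrial genome, but its proteins are encoded in the nucleus, made in the cytosol and imported. Some are homologues of bacterial ribosomal proteins, and others were added in the evolution of mitochondria. Neurons depend heavily on respiration, and the cortex is among the tissues affected in human disorders of mitochondrial translation.

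The table is a selection, and this limits every comparison below. Each of its genes had a deposited p-value below 0.05 and a higher mean in responders, so that all 38 genes stand higher in responders on the authors' library scale by the way the table was made. Scaled instead to the sum of listed reads, 34 of the 38 (89.5%) had a higher mean in responders and 4 a lower one, against 59.3% of listed genes higher. With TMM factors over the listed genes, 27 (71.1%) had a higher and 11 a lower mean, against 51.4% of listed genes higher. The difference between these shares was not tested. Those scalings place the median log2 ratio of all listed genes at 0.04 and 0.01, against 0.57 on the authors' scale, and the median of the 38 lay 0.045 above it under each, against 0.077 on the authors' scale. What can be described is how far they stood apart, in which mice, and how that compares with the other listed genes.

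Per mouse, the levels of the 38 genes in FPKM (fragments per kilobase, divided by the authors' scale number for the library) summed to 382, 377 and 779 in Res1, Res2 and Res3, against 338, 307 and 313 in NR1, NR2 and NR3. All 3 responders lay above all 3 nonresponders, but Res1 and Res2 stood close to the nonresponders and Res3 stood far above every other mouse. The mean of the sums was 513 ± 231 FPKM in responders and 319 ± 16.2 FPKM in nonresponders (SD, n = 3 each), a ratio of 1.61, and of 1.19 when Res3 is left out. In bulk tissue, more cells of a type and more RNA per cell cannot be told apart.

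Res3 stood apart across the table. Listed reads summed to between 2430688 and 3486903 in responders and between 1989534 and 2344489 in nonresponders, with Res3 the deepest on listed reads and the lowest on the authors' library scale. The median FPKM of listed genes was 11.4, 11.9 and 18.8 in Res1, Res2 and Res3, against 10.0, 9.48 and 9.78 in NR1, NR2 and NR3. Correlations of log2(FPKM + 1) across listed genes, which are not independent replicates, ran from 0.967 to 0.972 between Res3 and any other library and from 0.993 to 0.996 among the other 5. The summed levels of listed markers of 3 other cell types were also higher in every responder than in any nonresponder, and highest in Res3. The 4 of 5 astrocyte markers in the table summed to between 245 and 333 FPKM in responders and between 192 and 217 FPKM in nonresponders. The 5 of 7 microglia markers summed to between 94.96 and 192 FPKM in responders and between 72.1 and 84.6 FPKM in nonresponders, and 4 of 6 leptomeningeal markers to between 11.2 and 17.1 FPKM in responders and between 7.01 and 7.80 FPKM in nonresponders. Single markers did not all follow the sums: the microglial Tmem119 was lowest in Res3 among responders, at 8.29, 8.85 and 8.13 FPKM in Res1, Res2 and Res3, against 6.75, 6.46 and 6.29 FPKM in NR1, NR2 and NR3. The groups overlapped in microglial Tyrobp and leptomeningeal Ogn, and most of the astrocyte sum was Aldoc, with 188 to 262 FPKM in responders and 153 to 167 FPKM in nonresponders. None of these listed markers was at 0. No marker on the lists for neurons, oligodendrocytes, their precursors, endothelium or erythrocytes is in the table, so the labelled tissue could not be checked against neuronal markers. The part of these differences in the results below was not tested.

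By the authors' deposited adjusted p-value, none of the 38 genes passed 0.05, although all 38 passed it unadjusted, while 19 of all 1375 listed genes (1.38%) passed when adjusted. The deposited adjusted p-values of the 38 genes ran from 0.059, for Mrpl22, to 0.318. A refit of the deposited counts with edgeR's quasi-likelihood test on the authors' library scale gave an unadjusted p below 0.05 for 6 of the 38 (15.8%), where 26.5% of all listed genes had one. The 6 were Mrpl13, Mrpl22, Mrpl42, Mrpl52, Mrpl54 and Mrps23. With 1 mouse left out the count was 18 to 25 for a responder and 0 or 1 for a nonresponder, and it was 0 with TMM factors over the listed genes. Without Res3 it was 18 (47.4%), against 60.2% of listed genes. The share of listed genes was not counted in the fits without another mouse or with TMM factors. After Benjamini-Hochberg adjustment over the listed genes in edgeR, 0 genes passed 0.05 in the whole table (0%) and the lowest adjusted p among the 38 was 0.128. Adjusted in the same way, DESeq2 passed 3 listed genes and 0 of the 38. A DESeq2 refit gave an unadjusted p below 0.05 for 20 of the 38 (52.6%), against 42.5% of listed genes. Because the table was selected on this same contrast, these p-values are descriptions. With 3 mice against 3, an exact two-sided permutation test of a single gene cannot go below 0.1.

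In 23 of the 38 genes (60.5%), 7 of the small and 16 of the large subunit, every responder lay above every nonresponder, against 73.5% of all listed genes. The difference between these shares was not tested. Res3 was the highest of the 6 mice in 38 of 38 genes, against 87.6% of listed genes. The median log2 ratio of group means, responders over nonresponders, was 0.65 for the 38 genes, a fold of 1.56, with quartiles at 0.57 and 0.78. Over the 1358 listed genes with a ratio it was 0.57. Without Res3 the median was 0.25 for the 38 and 0.26 over the table.

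The 25 large-subunit genes had a median log2 ratio of 0.64, and 0.25 without Res3. Mrpl41, a protein of the large subunit with no bacterial counterpart, had the highest level of all 38 on the FPKM scale. It measured 31.0, 33.5 and 70.3 FPKM in Res1, Res2 and Res3, against 30.0, 28.4 and 27.3 FPKM in NR1, NR2 and NR3. The groups did not overlap, but Res1 lay just above NR1 and Res3 had more than any other mouse by a wide margin. Next among the large-subunit genes were Mrpl28, at 19.3, 15.8 and 35.9 FPKM in the responders and 17.3, 15.2 and 16.1 FPKM in the nonresponders, and Mrpl16, whose protein lies close to the site where the incoming tRNA binds. Mrpl16 measured 20.7, 17.8 and 30.8 FPKM in the responders and 16.8, 16.0 and 15.6 FPKM in the nonresponders. Mrpl28 overlapped between the groups and Mrpl16 did not.

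Mrpl22, whose protein lines the exit tunnel of the nascent chain, had the lowest deposited p-value of the 38, at 0.000441. It measured 10.7, 11.2 and 15.6 FPKM in Res1, Res2 and Res3, against 8.24, 6.29 and 6.07 FPKM in NR1, NR2 and NR3. Here Res1 and Res2 stood clear of the nonresponders, and Res3 was 1.43 times the mean of Res1 and Res2. Its mean was 12.5 ± 2.74 FPKM in responders and 6.87 ± 1.19 FPKM in nonresponders (SD, n = 3 each), a fold of 1.82. The gene occupies positions 58171661 to 58179565 of chromosome 11 in mm10 and is transcribed from the plus strand.

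The large-subunit genes with the highest ratios had a larger excess of Res3. Mrpl52 and Mrpl46 encode proteins added in mitochondria, and Mrpl46, like Mrpl32 below, was chosen after its values were seen. Mrpl52 measured 10.5, 11.5 and 35.3 FPKM in Res1, Res2 and Res3, against 9.80, 7.25 and 8.60 FPKM in NR1, NR2 and NR3. Mrpl46 measured 10.4, 10.4 and 32.3 FPKM in the responders and 10.1, 9.75 and 7.91 FPKM in the nonresponders. Res3 was 3.21 times the mean of Res1 and Res2 in Mrpl52, the largest such ratio of the 38, and 3.10 times in Mrpl46. Mrpl54, another protein added in mitochondria, measured 11.8, 12.9 and 27.2 FPKM in the responders and 10.4, 8.33 and 8.04 FPKM in the nonresponders. Mrpl13, a homologue of a bacterial protein, measured 2.97, 3.06 and 7.37 FPKM in the responders and 2.21, 2.41 and 2.36 FPKM in the nonresponders. In both genes all responders lay above all nonresponders, and the folds were 1.94 for Mrpl54 and 1.92 for Mrpl13.

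The smallest large-subunit ratio among genes whose groups do not overlap was that of Mrpl16, at 1.43-fold, followed by Mrpl50, a protein added in mitochondria, at 1.46-fold. Mrpl50 measured 15.8, 18.7 and 27.2 FPKM in Res1, Res2 and Res3, against 14.7, 13.6 and 14.0 FPKM in NR1, NR2 and NR3. Each responder lay above each nonresponder.

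In 9 large-subunit genes the groups overlapped, Mrpl28 among them. Mrpl12, of the stalk that recruits translation factors, measured 14.7, 12.1 and 23.3 FPKM in Res1, Res2 and Res3, against 13.0, 10.6 and 10.99 FPKM in NR1, NR2 and NR3. Mrpl1, of the stalk on the side where the spent tRNA leaves, measured 3.25, 4.13 and 7.26 FPKM in the responders and 3.24, 2.83 and 3.75 FPKM in the nonresponders. In Mrpl12 it was Res2, and in Mrpl1 it was Res1, that fell within the nonresponders. Mrpl18, of the central protuberance, measured 11.8, 15.0 and 28.5 FPKM in the responders and 12.6, 10.99 and 10.7 FPKM in the nonresponders. Mrpl40, whose human homologue lies in the region deleted in DiGeorge syndrome, measured 9.50, 8.30 and 18.5 FPKM in the responders and 8.97, 8.33 and 7.03 FPKM in the nonresponders. Res1 lay below NR1 in Mrpl18, and Res2 below NR1 and NR2 in Mrpl40. Mrpl47, a homologue of a bacterial protein near the exit of the tunnel, measured 3.37, 2.67 and 6.10 FPKM in the responders and 2.75, 2.003 and 2.45 FPKM in the nonresponders. Mrpl36, a homologue of a small bacterial protein, measured 14.4, 13.1 and 22.6 FPKM in the responders and 13.1, 9.58 and 10.3 FPKM in the nonresponders. In both, Res2 lay just below NR1. Mrpl15, another bacterial homologue, measured 2.43, 2.47 and 5.08 FPKM in the responders and 2.58, 2.17 and 1.76 FPKM in the nonresponders. Mrpl33, the lowest in level of the 38 on the FPKM scale, measured 1.79, 1.69 and 3.95 FPKM in the responders and 1.48, 1.55 and 1.70 FPKM in the nonresponders. Res1 and Res2 both lay below NR1 in Mrpl15, and in Mrpl33 Res2 lay just below NR3.

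The 13 small-subunit genes had a median log2 ratio of 0.65, and 0.25 without Res3. Mrps21 and Mrps12 were the highest in level. Mrps21 measured 25.5, 19.2 and 54.9 FPKM in Res1, Res2 and Res3, against 20.3, 22.6 and 20.6 FPKM in NR1, NR2 and NR3. Res2 was the lowest of all 6 mice there, so the groups overlapped. Mrps12, whose protein lies at the decoding centre, measured 23.0, 22.4 and 41.1 FPKM in the responders and 19.4, 17.2 and 19.1 FPKM in the nonresponders. All responders lay above all nonresponders. Mrps23, a protein added in mitochondria, measured 19.1, 19.2 and 32.4 FPKM in the responders and 14.3, 14.3 and 14.9 FPKM in the nonresponders. The nonresponders of Mrps23 varied by 2.43% of their mean, and Res1 and Res2 stood clear of them. Mrps22, which is mutated in a human mitochondrial disease, measured 4.77, 4.78 and 11.4 FPKM in the responders and 4.06, 4.23 and 3.92 FPKM in the nonresponders.

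The smallest excess of Res3 among the 38 was that of Mrps35, a protein added in mitochondria. It measured 2.14, 2.22 and 2.56 FPKM in Res1, Res2 and Res3, against 1.997, 1.70 and 1.64 FPKM in NR1, NR2 and NR3. Res3 was 1.17 times the mean of Res1 and Res2 here. Mrps6, a bacterial homologue, came next, at 5.76, 7.54 and 8.75 FPKM in the responders and 5.24, 4.71 and 5.58 FPKM in the nonresponders. In both genes every responder lay above every nonresponder, with folds of 1.30 for Mrps35 and 1.42 for Mrps6. Mrps18c, one of several homologues of a bacterial small-subunit protein, measured 9.37, 10.6 and 31.8 FPKM in the responders and 8.86, 6.66 and 9.78 FPKM in the nonresponders. Res1 lay below NR3, and Res3 was 3.18 times the mean of Res1 and Res2. Mrps14, a bacterial homologue, measured 7.45, 8.43 and 19.6 FPKM in the responders and 6.49, 5.77 and 7.60 FPKM in the nonresponders. Mrps24, a homologue of a bacterial protein at the entry of the mRNA channel, measured 7.55, 8.10 and 18.0 FPKM in the responders and 8.11, 7.07 and 6.57 FPKM in the nonresponders. Res1 lay below NR3 in Mrps14, and Res1 and Res2 lay below NR1 in Mrps24. Mrps25 and Mrps31, both added in mitochondria, also overlapped. Mrps25 measured 4.50, 4.78 and 8.97 FPKM in the responders and 4.67, 3.65 and 4.22 FPKM in the nonresponders. Mrps31 measured 5.07, 4.44 and 8.13 FPKM in the responders and 4.77, 3.84 and 3.68 FPKM in the nonresponders. Res1 lay below NR1 in Mrps25, and Res2 lay below NR1 in Mrps31. Across the 15 genes with overlapping groups in both subunits, NR1 was the highest nonresponder in 10, NR3 in 4 and NR2 in 1.

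The remaining genes, Mrpl19, Mrpl21, Mrpl23, Mrpl32, Mrpl35, Mrpl42, Mrpl46, Mrpl51, Mrpl55, Mrps16 and Mrps36, are 11 in number. None of them had overlapping groups, and their folds ran from 1.46, for Mrpl19, to 1.91, for Mrpl46. The protein of Mrps36 is also known as a part of the 2-oxoglutarate dehydrogenase complex, and without it the small-subunit median was 0.64.

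The sum of small-subunit FPKM divided by that of the large subunit was 0.504, 0.486 and 0.510 in Res1, Res2 and Res3, against 0.473, 0.507 and 0.523 in NR1, NR2 and NR3. The groups overlapped, with a mean of 0.500 ± 0.0124 in responders and 0.501 ± 0.0256 in nonresponders (SD, n = 3 each). The small-subunit sum was 128, 123 and 263 FPKM in the responders and 108, 103 and 108 FPKM in the nonresponders, and the large-subunit sum was 254, 254 and 516 FPKM in the responders and 229, 204 and 206 FPKM in the nonresponders. Both sums were highest in Res3, and in each the responders lay above the nonresponders. With Mrpl47 and Mrps24 counted as homologues of bacterial proteins, those 23 genes had a median log2 ratio of 0.63 and the 15 genes for proteins added in mitochondria one of 0.65.

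**Figure D1:**
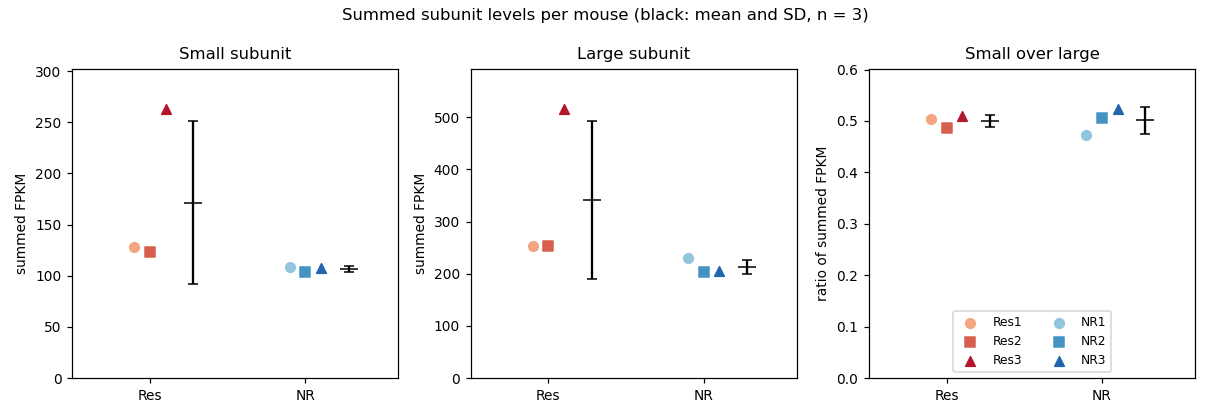
Summed FPKM of the small-subunit and large-subunit genes and their ratio, with a point for each mouse, the mean and SD of each group, and axes from 0. Small over large lies between 0.473 and 0.523 in all 6 mice, and both sums are highest in Res3.

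With Res1 and Res2 alone against the 3 nonresponders, edgeR gave an unadjusted p below 0.05 for 18 of the 38 (47.4%), against 60.2% of listed genes, and a p adjusted over listed genes below 0.05 for 10, against 41.0%. These 10 were Mrpl13, Mrpl19, Mrpl22, Mrpl32, Mrpl42, Mrpl50, Mrpl51, Mrpl54, Mrps12 and Mrps23. That adjustment runs only over genes already selected on this contrast. Adjusted over the 14156 tests that the deposited values imply, the same edgeR fit passed 0 of the 38 at 0.05, and 75 of the 1375 listed genes. The lowest such adjusted p among the 38 was 0.084. The 6 genes below 0.05 with all mice were below 0.05 here too. Leaving out a mouse after its values were seen is no independent test. Relative to the mean of Res1 and Res2, Res3 was higher by a median of 2.06 times in the 38 genes, with a range of 1.17 to 3.21, against 1.62 times over all listed genes. Among listed genes other than the 38 whose coding length lies in the family's range, 844 genes, the median was 1.74 times.

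**Figure D2:**
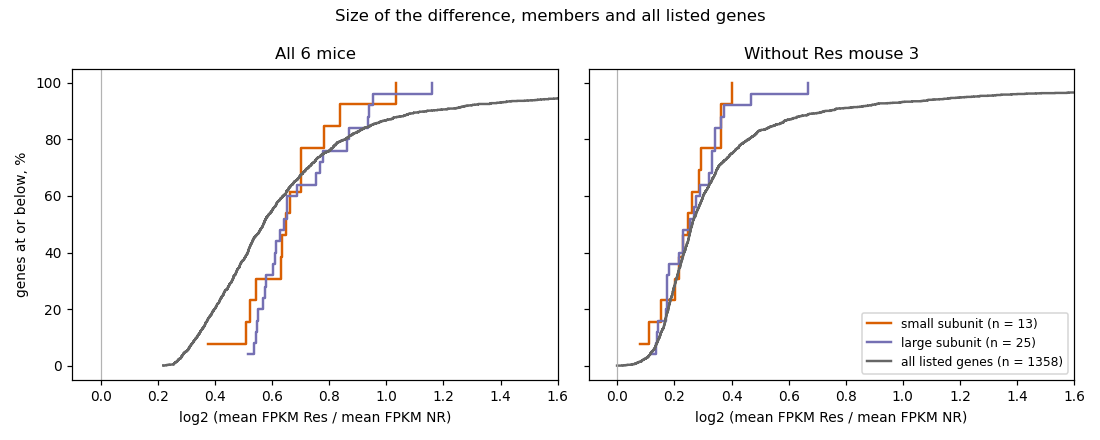
Cumulative share of genes against the log2 ratio of group means, for the small-subunit genes, the large-subunit genes and all listed genes, with all mice and without Res3. With all mice the medians are 0.65 for the 38 genes and 0.57 for the table, while the upper quartiles are both 0.78. Without Res3 the medians are 0.25 and 0.26.

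Among 1193 listed genes with a coding length and a mean of at least 1 FPKM, split by coding length into 5 bins of about equal size, the median ratio of Res3 to the mean of Res1 and Res2 was 2.14, 1.77, 1.71, 1.42 and 1.26 from the shortest to the longest bin. Of the 38 genes, 15, 12, 7 and 4 lay in the 4 shortest bins, with medians of 2.15, 2.01, 2.02 and 1.84, and none in the longest. As a description over genes, which share the same libraries, the log2 of this ratio correlated with log2 coding length at a Pearson r of -0.516 and a Spearman rho of -0.520 over the 1193 genes, and at -0.230 and -0.250 over the 38. In every bin that held any of the 38, their median was at or above that of the bin. The part of gene length in the levels of Res3 was not tested. The log2 ratio of Res1 and Res2 over the nonresponders correlated with log2 coding length at a Pearson r of 0.109 over the 1193 genes and -0.035 over the 38.

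**Figure D3:**
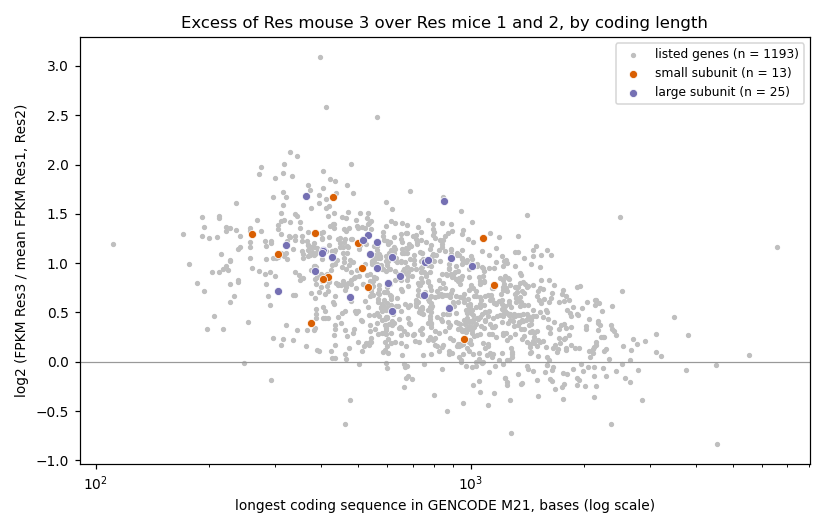
Log2 ratio of Res3 to the mean of Res1 and Res2 against coding length for listed genes, with the 38 genes marked. Before taking log2, the bin medians of the ratio are 2.14 for the shortest genes and 1.26 for the longest. Of the 38 genes, 27 lie in the 2 shortest bins, 7 in the middle bin and 4 in the next.

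Of 5 further subunits with other names, 1 is listed, Aurkaip1, at 20.4, 23.0 and 50.8 FPKM in Res1, Res2 and Res3, against 19.3, 15.6 and 18.7 FPKM in NR1, NR2 and NR3, a fold of 1.76. Of 16 translation factors 2 are listed, of 17 mitochondrial aminoacyl-tRNA synthetases 1 (Yars2, fold 1.42), and of 23 ribosome assembly genes 0. The translation factor Tufm, which carries aminoacyl-tRNA to the ribosome, had a fold of 1.30. The other listed factor was Slirp, a partner in the stability of mitochondrial mRNAs, at 0.492, 0.138 and 1.53 FPKM in Res1, Res2 and Res3, against 0.121, 0.0375 and 0.234 FPKM in NR1, NR2 and NR3. Its fold was 5.50 at these low levels, and the groups overlapped, with Res2 below NR3. Of 10 genes for transcription and maintenance of the mitochondrial genome, 1 is listed, Tfam, with a fold of 1.33. None of these listed genes had a deposited adjusted p below 0.05.

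The respiratory chain held 30 listed genes of 101, with a median log2 ratio of 0.64 and 0.18 without Res3, and the cytosolic ribosomal proteins 21 of 69, with 0.78 and 0.30. Of the 13 protein genes of the mitochondrial genome 8 are listed, with a median of 0.60, and 0.26 without Res3. The summed FPKM of the 38 genes over that of the listed respiratory chain genes was 0.256, 0.262 and 0.248 in Res1, Res2 and Res3, against 0.244, 0.248 and 0.254 in NR1, NR2 and NR3. The groups overlapped. Over the listed cytosolic ribosomal proteins the same quotient was 0.299, 0.285 and 0.222 in the responders and 0.305, 0.292 and 0.302 in the nonresponders, with Res3 the lowest mouse. Of 8 nuclear regulators, 1 is listed: Gabpa, a subunit of an ETS-family factor known to act at such promoters. It measured 5.19, 5.42 and 4.53 FPKM in the responders and 4.16, 3.51 and 3.82 FPKM in the nonresponders, and here Res3 was the lowest responder.

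Promoters were read for 33 of the 38 genes from RefSeq (GRCm38.p6, 250 bases before to 50 after the start). Mrps35, Mrpl13, Mrpl15, Mrpl54 and Mrpl19 were not matched. A gene with several promoters was counted if any of them held the motif. The ETS motif CCGGAAG, on either strand, was in 12 of the 33 (36.4%). It was in 21.9% of the 1007 listed genes with a promoter and in 9.93% of all 27025 genes in the RefSeq set. The core of the NRF1 motif GCATGCGC was in 3 (9.09%), against 7.35% and 3.05%, and AAGATGG, the YY1 motif, in 7 (21.2%), against 10.3% and 7.28%. CCAAT was in 39.4%, against 47.6% and 41.1%. The promoters also differed in base composition. The median ratio of observed to expected CG pairs was 0.82 for the family, 0.76 for listed genes and 0.38 for the RefSeq set. The median GC content was 57.8%, 58.7% and 52.7%. The ETS and NRF1-core letters hold a CG pair. The part of base composition in the shares, and the differences between the shares, were not tested. A match is a description of these letters, not a site of binding. The 250 bases upstream of 3 genes are shown because they carry the motifs. Mrpl22 holds both the ETS and the NRF1 match and has the lowest deposited p-value. The other of the 2 genes with both matches, Mrpl33, had overlapping groups and a deposited p-value of 0.034. Mrpl52 holds ETS and YY1 matches and has the largest excess of Res3. Mrps12 also holds both of those, and there Res3 was 1.81 times the mean of Res1 and Res2. Mrpl32 holds several NRF1-core matches. A link between matches and the size of the differences was not tested. Capitals mark ETS, NRF1-core and YY1 matches on either strand.

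Mrpl22, chr11:58171414-58171663, plus strand: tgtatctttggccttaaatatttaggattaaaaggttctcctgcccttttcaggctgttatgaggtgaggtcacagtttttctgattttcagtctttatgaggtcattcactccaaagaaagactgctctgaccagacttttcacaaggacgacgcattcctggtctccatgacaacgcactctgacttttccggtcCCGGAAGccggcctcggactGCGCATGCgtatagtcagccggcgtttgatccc
Mrpl52, chr14:54426659-54426908, plus strand: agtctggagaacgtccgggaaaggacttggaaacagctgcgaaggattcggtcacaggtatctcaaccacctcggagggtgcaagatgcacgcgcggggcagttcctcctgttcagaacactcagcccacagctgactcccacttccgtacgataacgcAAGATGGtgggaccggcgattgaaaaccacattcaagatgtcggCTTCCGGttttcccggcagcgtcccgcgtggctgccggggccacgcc
Mrpl32, chr13:14613038-14613287, minus strand: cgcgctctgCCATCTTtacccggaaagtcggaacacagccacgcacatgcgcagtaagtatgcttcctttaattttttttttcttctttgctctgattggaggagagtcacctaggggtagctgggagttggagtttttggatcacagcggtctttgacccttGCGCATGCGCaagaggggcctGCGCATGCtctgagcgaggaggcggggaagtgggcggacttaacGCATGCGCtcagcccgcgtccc

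Mrpl22 and Mrpl32 had all responders above all nonresponders. Mrpl32, whose protein is processed in the matrix by a protease that acts on it in mouse and yeast, measured 2.92, 2.92 and 6.78 FPKM in Res1, Res2 and Res3, against 2.41, 2.09 and 2.41 FPKM in NR1, NR2 and NR3. Res1 and Res2 lay above every nonresponder by a small margin, and Res3 far above.

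The 38 genes lie on 17 chromosomes, with at most 5 on one, on chromosomes 6 and 11. Within GENCODE M21, 14 of the 38 share exon bases with another gene, 36.8% against 30.6% of listed genes, and in 9 the other gene is on the opposite strand. The authors' strand setting is not given, so reads of Mrps25, which shares 69.8% of its exon bases with Nr2c2 on the other strand, and of Mrpl19, Mrpl47 and Mrpl46 may include those of a neighbour, which was not tested. Mrps18c shares 23.2% of its exon bases with Gm43511 on the same strand, where reads of the pair cannot be told apart under any strand setting. The same limit applies to Mrps6, which shares 19.9% with Gm49711 and Slc5a3, and to Mrps24, which shares 15.4% with Urgcp. It also applies to smaller shares in Mrpl33 (3.56%) and Mrpl51 (2.15%). Mrps36 and Mrpl23 have pseudogenes, so reads could be split with those copies. Reads per library for the 38 ranged from 106 to 1002, and the median spread between nonresponders was 8.86% of the mean, against 6.05% from counting alone, while it was 45.5% among responders.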

How the data were processed

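RNA from the prefrontal cortex of 6 mice was sequenced as polyA libraries, per the labels' protocols. The deposited table gives whole read counts per gene and library, FPKM, a log2 fold change and p-values, per the file headers. The authors' FPKM equals the deposited count over the deposited gene length and 1 scale number per library. The authors' deposited log2 fold change is nonresponders over responders, and their p-value is below 0.05 in every listed gene. The genome build is mm10, per the submitters' processing notes. Sources used here name no aligner, counter or strand setting. A further 6 per-sample columns matched no label and were not used.

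The mice are separate animals, so the spread covers mice and technique. Group means and SD of FPKM (n = 3) were computed with Python 3.11.15 and pandas 2.3.3, with no pseudocount. The counts were refitted over the whole table with edgeR 4.0.16 quasi-likelihood (R 4.3.3) and with DESeq2 1.42.0, both on the authors' library scale. The p-values were adjusted by Benjamini-Hochberg over the listed genes. Those of edgeR were also adjusted over the 14156 tests that the deposited adjusted p-values imply. The edgeR script was tested on simulated data with the same spread in both groups and no outlying library. That setting differs from these mice, so the test covers the script and not its behaviour with Res3. Listed reads per library are given with the results, and total depth is unknown. Promoters came from RefSeq and coding lengths and exon overlaps from GENCODE M21. Motif counts used both strands. The members and lists were chosen with earlier results of these data known. Values in every mouse are given for members chosen by a rule: in each subunit the 3 highest in mean FPKM, the 3 largest and 3 smallest log2 ratios, the 2 lowest deposited p-values, and every member whose groups overlap. Alternatives left out each mouse, changed the library scaling (sum of listed reads, TMM or DESeq2 size factors), the pseudocount, the filter on low counts and the threshold, and added the replicate block.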

Additional observations from a re-analysis of the deposited data

How the results depend on the processing

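Leaving out any 1 mouse kept all 38 genes higher in responders on the authors' scale, as it did 99.6% to 100% of listed genes. The table was selected for this direction on this scale, so this is no separate result about the 38. At an authors' adjusted p threshold of 0.1, 1 of the 38 passes (Mrpl22). The number with an unadjusted edgeR p below 0.05, 6 with all mice, ranged from 0 to 25 when 1 mouse was left out (21, 25 and 18 without Res1, Res2 and Res3; 1, 0 and 0 without NR1, NR2 and NR3), and was 0 with TMM and 0 with DESeq2 size factors over listed genes in edgeR, 5 when genes under 10 reads were left out, and 20 by DESeq2's Wald test. The replicate block gave 4, and 222 of all listed genes against 365 without it. Without Res3, 60.2% of all listed genes had an unadjusted edgeR p below 0.05. The number of listed genes was not counted in the fits without another mouse, with other scalings or with the read filter. The replicate numbers do not pair the mice: the same-number correlations of deviations were -0.063, -0.055 and -0.033. The median log2 ratio was 0.084 when scaled to the sum of listed reads and 0.051 with TMM, against 0.65 on the authors' scale. TMM was a scaling added after seeing the data. These scalings put the median of all listed genes at 0.039 and 0.006, and 4 and 11 of the 38 below 0. Above 0 were 89.5% and 71.1% of the 38, against 59.3% and 51.4% of listed genes. The small-subunit median was 0.090 when scaled to the sum of listed reads and 0.056 with TMM, and 0.247 to 0.829 when 1 mouse was left out (0.247 without Res3). The large-subunit median was 0.084 when scaled to the sum of listed reads and 0.051 with TMM. The 23 genes whose groups do not overlap became 2 (Mrpl54 and Mrps23) when scaled to the sum of listed reads and 23 to 31 when 1 mouse was left out. Without Res3 it was 23 (60.5%), against 74.1% of listed genes. The share of listed genes was not counted under the other alternatives, so those counts cannot be set against the table. The median of the 38 ran from 0.250 to 0.818 when 1 mouse was left out. The cause of these changes was not tested. Depth is unknown beyond the listed reads, which limits the lowest genes.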

Other observations

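The order of the levels of the 38 genes depended on the length used to scale them. With the longest coding sequence in GENCODE M21 in place of the deposited gene length, an alternative added after seeing the data, Mrpl41 moved to rank 2 of the 38, from rank 1. Mrpl51 moved to rank 1, from rank 18, and Mrps14 to rank 3, from rank 20. Mrps25 moved to rank 7, from rank 27, and Mrpl33 to rank 13, from rank 38. Ratios between mice do not change with the length used.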
